A study of Spinacia oleracea with 24 samples.

Results

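WRKY and NAC transcription factors are 2 plant-specific families, and their members expressed in spinach leaves are described here side by side across nitrogen supply and time of day. A gene belonged to a family when the protein name in the deposited expression table contained "WRKY transcription factor", "NAC domain-containing protein" or "NAC transcription factor". Of 25494 genes in the table, 97 had such a name, 51 WRKY and 46 NAC. A level of at least 1 FPKM (fragments per kilobase of gene length, scaled for library size) in at least 3 of the 24 libraries left 53 genes, 30 WRKY and 23 NAC, out of 18110 genes with that level. Spinach (Spinacia oleracea, cultivar Space) was grown in a soil-free medium under 8 h of light per day. Leaves of 48-day-old plants were frozen and their messenger RNA was sequenced. The low nitrogen plants (LN) were fertilized with 50 ppm nitrogen and the high nitrogen plants (HN) with 200 ppm. Leaves of both levels were sampled 4 times in a day, from 3 independent plants per group according to the labels, which gave 8 groups of 3 libraries. The labels do not say whether a plant was sampled at more than 1 time, so "plant" below stands for 1 library. T1 was when the dark period ended, T2 midway through the light, T3 when the light ended, and T4 midway through the dark. Values of single plants are given below in the order of replicates 1, 2 and 3.

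WRKY proteins bind the W-box of target promoters through a domain that holds the amino acids WRKY and a zinc finger, and many of them are switched on within minutes of a pathogen signal by mitogen-activated protein kinase (MAP kinase) cascades. NAC proteins share an N-terminal DNA-binding domain and act in leaf ageing, stress responses, and the building of xylem and secondary walls. In leaves both families are best known as regulators of immunity and senescence, the stage at which nitrogen is moved out of old leaves, and most roles given below were worked out in Arabidopsis thaliana unless another species is named.

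The protein names come from similarity to proteins of other species, and 25 of the 30 WRKY and 19 of the 23 NAC genes carry Arabidopsis names. The family's own protein domain was listed for 51 of the 53 genes, 29 WRKY and 22 NAC. No domain was listed for WRKY21 Spo02295 and NAC048 Spo10819, which belong to the families by name alone. Several names occur more than once (WRKY21 and WRKY24 3 times each, WRKY7, WRKY40, WRKY46 and NAC078 2 times each), so each gene is given with its identifier. Reads shared between near-identical copies could have been split between them, since the counting of shared reads is not stated. The genes lie on Sp75 chromosomes 1 to 6 in 34 of 53 cases and on unplaced scaffolds otherwise. Of the genes by name that did not reach the level, 5 WRKY and 5 NAC genes were listed at 0 in all 24 libraries.

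Most members were expressed at low to moderate levels. The median of the mean FPKM was 4.40 for WRKY and 4.68 for NAC genes, against 10.3 for all 18110 genes, and 46 of the 53 members were above 0 in every library. A mean over 10 FPKM was reached by 7 WRKY and 8 NAC genes. The highest WRKY gene was WRKY11 Spo15056, a calmodulin-binding brake on basal immunity, with a mean of 38.5 FPKM. WRKY46 Spo18161, named after the barley sugar-response factor SUSIBA2, had 21.0 FPKM. WRKY24 Spo06372 and WRKY24 Spo09346, named after a rice repressor of gibberellin and abscisic acid signals, had 20.1 FPKM each. The highest NAC gene was NAC083 Spo04911 (VNI2, which holds back xylem vessel formation and delays leaf ageing), with 89.0 FPKM, on chromosome 1 at 47753642 to 47756119. It was followed by NAC082 Spo20932 (ribosomal stress response and leaf ageing) with 61.3 FPKM, JA2L Spo18886 (stomatal reopening in tomato) with 47.6 FPKM and NAC6 Spo11776 (stress-induced cell death in soybean) with 37.5 FPKM. At the lower end the level rule set the edge: by the third-highest library, WRKY40 Spo04299 (1.25 FPKM), WRKY29 Spo09328 (1.63), NAC073 Spo08038 (1.09) and NAC071 Spo23322 (1.21) lay just inside it. WRKY3 Spo14257 (0.843 FPKM), WRKY12 Spo02009 (0.944), NAC083 Spo08953 (0.805) and NAC007 Spo12786 (0.972) lay just outside. WRKY29 Spo09328 reached 1 FPKM in the 3 LN T1 libraries alone, so the level rule itself favoured a high LN T1 level in this gene, and its differences that involve T1 are given as a description. NAC061 Spo19692 reached 1 FPKM in 7 libraries, fewer than 3 of them outside T1. The rule favoured a high T1 level in this gene too, and its differences that involve T1 are also a description.

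The libraries held 18369094 to 25252705 fragments each, worked out from FPKM times gene length. The leaf label was checked with 21 genes of antenna proteins and the Rubisco small subunit, whose summed level was between 12921 and 108718 FPKM. Markers of other cell types were present in part. Of 4 xylem genes, CESA4 was between 7.49 and 41.98 FPKM, CESA7 and CESA8 reached 4.27 and 4.37 FPKM, and the protease XCP1 was listed at 0 in every library. Of 7 genes of dividing cells and meristems, CYCB1-2 was the highest, at 44.6 to 108.6 FPKM, and 1 of the WUSCHEL genes was listed at 0. Of 4 flower genes, 3 were detected, at up to 6.53 FPKM, and 1 AGAMOUS gene was listed at 0. The guard cell factor MYB60 was between 5.62 and 25.98 FPKM and the root marker SCARECROW between 5.64 and 21.0 FPKM, while the phloem transporter SUC2 reached at most 0.422 FPKM. Among the libraries, LN T3 replicate 3, LN T4 replicate 3 and LN T1 replicate 2 lay farthest from their group means over all genes. In whole leaves, fewer cells of a type and less RNA per cell cannot be told apart. Tests used limma on log2(FPKM + 1) over all 18110 genes, a scale that understates the change of low genes, and a gene was called at a Benjamini-Hochberg adjusted p under 0.05. Values after ± beside a log2 difference are standard errors. The p-values rest on the spread between libraries within a group, pooled over the 8 groups and moderated over all tested genes.

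**Figure D1:**
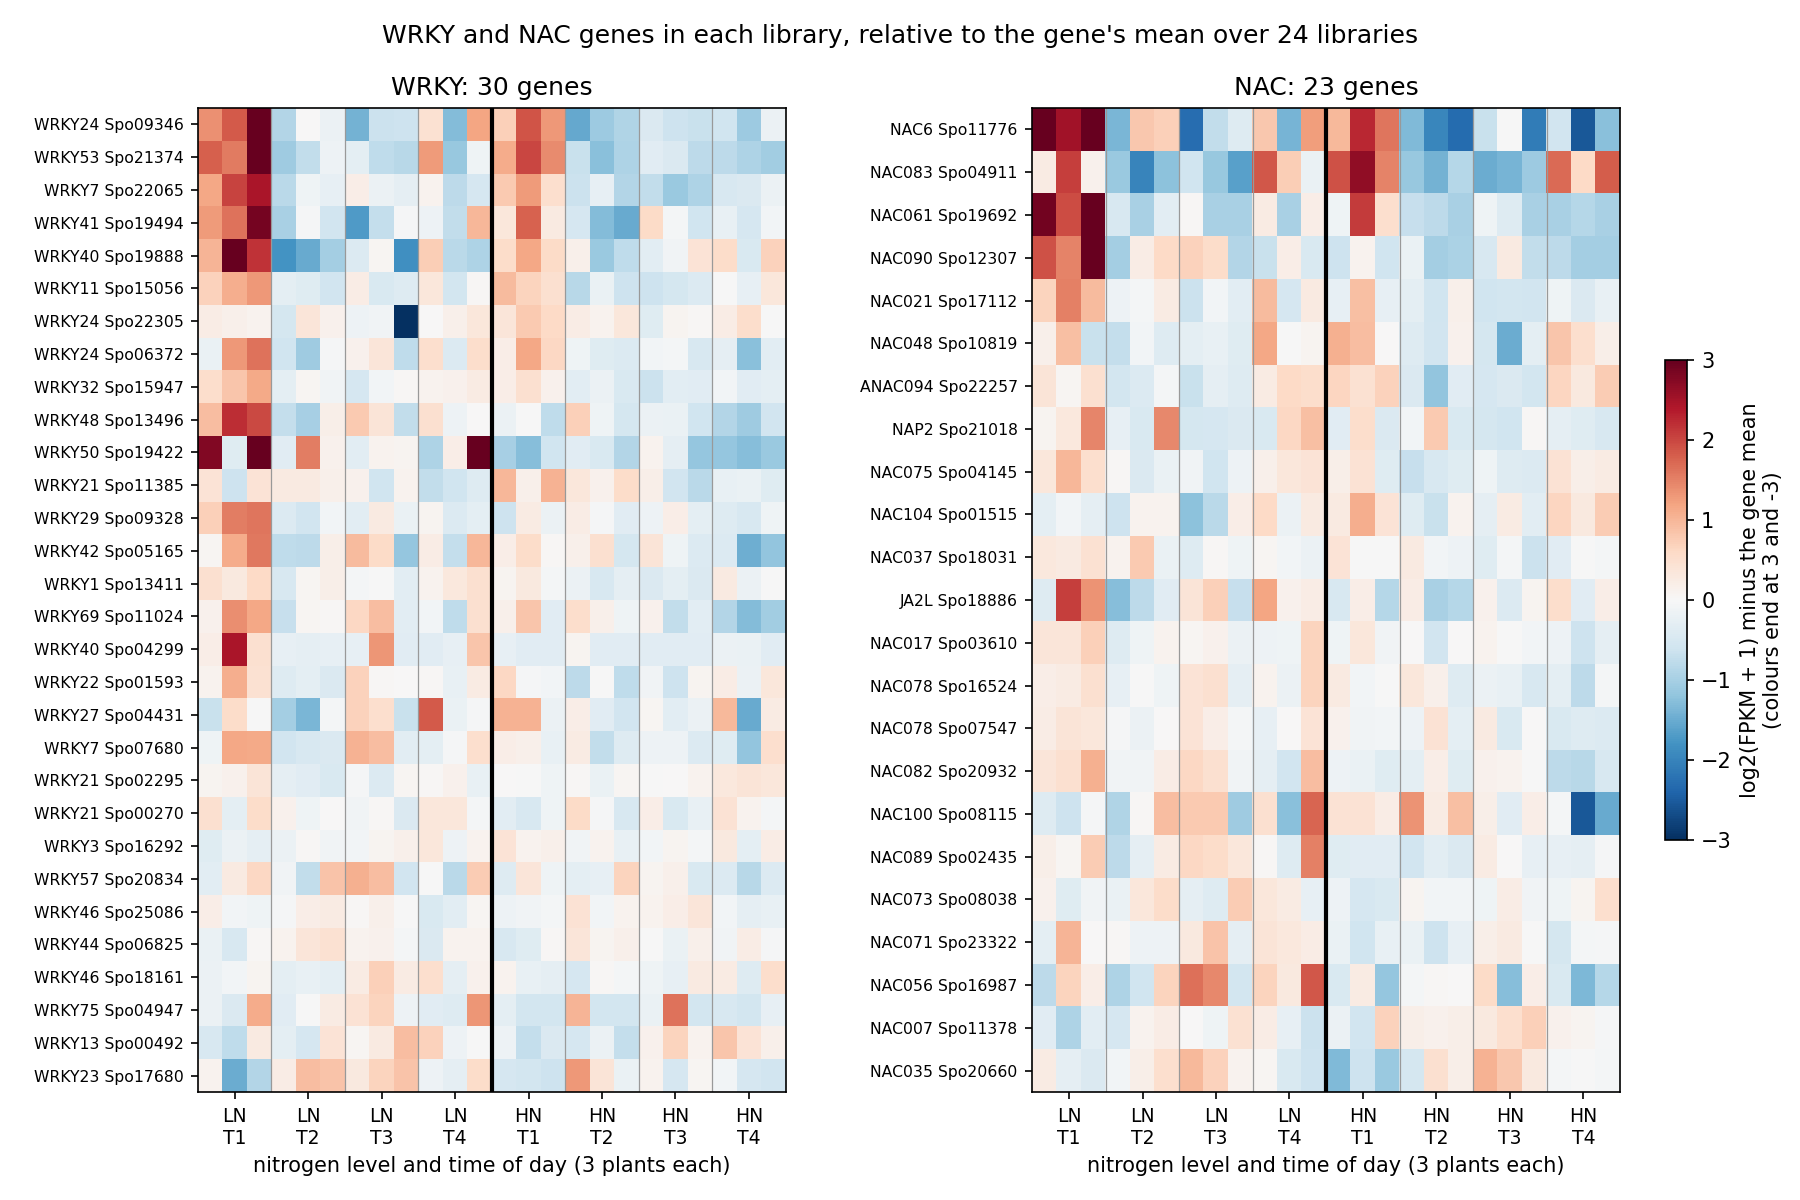
Level of each WRKY (left) and NAC (right) gene in each of the 24 libraries, as log2(FPKM + 1) minus the gene's mean, with LN libraries left of HN libraries, genes ordered by T3 minus T1, and colours that end at 3 and -3. Genes near the top are mostly red at T1, those at the bottom are mostly pale, and the darkest blue WRKY cell is WRKY24 Spo22305, listed at 0 in LN T3 replicate 3.

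In both families, more genes were highest at the end of the dark period than at any other time. In LN plants the group mean of log2(FPKM + 1) was highest at T1 for 19 of 30 WRKY and 13 of 23 NAC genes, against 30.4% of all genes. In HN plants it was highest at T1 for 17 of 30 WRKY and 10 of 23 NAC genes, against 30.1% of all genes. The LN counts include WRKY29 and NAC061, and the HN count of NAC genes includes NAC061. Both genes met the level rule through T1, so their highest time is a description. In LN the lowest mean was at T2 for 15 WRKY and 10 NAC genes, against 22.8% of all genes. In HN it was at T2 for 10 WRKY and 7 NAC genes, against 22.5% of all genes, and at T4 for 9 WRKY and 9 NAC genes, against 23.4% of all genes. The median distance between the highest and the lowest time was 1.26 log2 units in LN and 0.76 in HN for WRKY genes, and 0.85 in LN and 0.71 in HN for NAC genes. For all genes it was 0.65 in LN and 0.72 in HN. Whether the range itself differed between the nitrogen levels was not tested beyond the interaction given below.

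**Figure D2:**
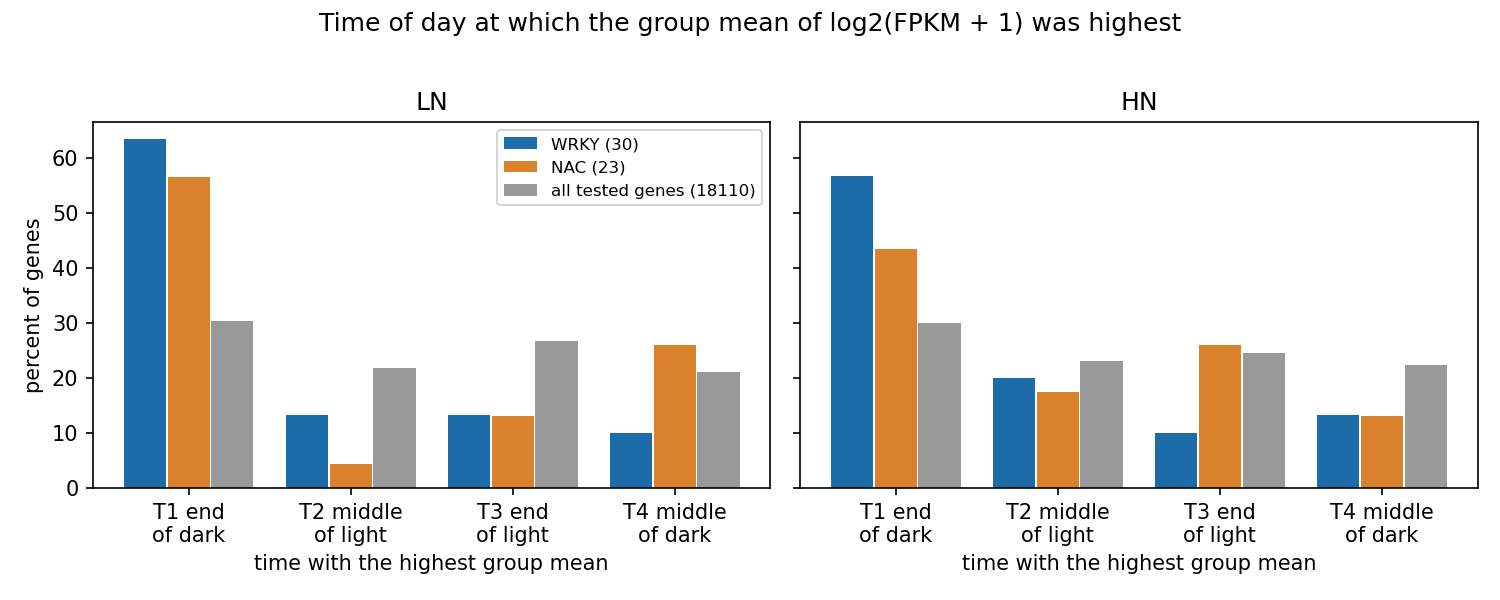
Percent of WRKY, NAC and all tested genes whose group mean was highest at each of the 4 times, in LN (left) and HN (right). The T1 bars of both families stand above the T1 bar of all genes at both nitrogen levels. They include WRKY29 in LN and NAC061 at both levels, which met the level rule through T1.

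A change over the 4 times was called in LN for 12 WRKY genes, WRKY29 among them, and 8 NAC genes, where 28.7% of all genes were called. In HN it was called for 9 WRKY and 7 NAC genes, where 38.9% of all genes were called. NAC061 is among the NAC genes of both counts. Both tests called 6 WRKY genes (WRKY7 Spo22065, WRKY11, WRKY24 Spo09346, WRKY32 Spo15947, WRKY41 Spo19494 and WRKY53 Spo21374) and 5 NAC genes (NAC6, NAC061 Spo19692, NAC075 Spo04145, NAC083 and ANAC094 Spo22257). Without HN T1 replicate 2, the HN count of WRKY genes was 5.

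Averaged over both nitrogen levels, the end of light was lower than the end of dark for 13 WRKY genes, WRKY29 among them, and 9 NAC genes, NAC061 among them. It was higher for 2 and 2. Over all genes, 24.2% were lower, 22.2% were higher and 46.4% were called in either direction, so the total called (15 WRKY, 11 NAC) was near the background, and the lower side was the larger one in both families. The median difference was -0.52 for WRKY and -0.28 for NAC genes, against -0.01 for all genes.

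Among WRKY genes the fall at the end of light was largest in WRKY24 Spo09346 on the log2(FPKM + 1) scale. Its level at T3 was 4.06, 7.70 and 7.80 FPKM in LN and 8.95, 7.81 and 7.55 FPKM in HN. At T1 it was 34.1, 47.5 and 131.9 FPKM in LN and 21.3, 48.7 and 32.5 FPKM in HN. Every T1 plant lay above every T3 plant, and LN replicate 3 stood above the rest (T3 minus T1 -2.47 ± 0.36 log2, SE, limma adjusted p = 1.9e-05). WRKY53 Spo21374, which promotes the onset of leaf senescence, had 1.65, 0.922 and 0.834 FPKM in LN and 1.58, 1.41 and 0.893 FPKM in HN at T3. Its T1 levels were 10.4, 8.61 and 27.4 FPKM in LN and 6.08, 12.1 and 7.68 FPKM in HN. The times did not overlap at either nitrogen level (T3 minus T1 -2.41 ± 0.32, limma adjusted p = 6.7e-06).

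Group IId holds the calmodulin-binding WRKY proteins. The plant zinc cluster domain that marks this group was listed for 5 of the 6 genes named WRKY7, WRKY11 or WRKY21, and for no other member. Between T3 and T1, 3 of the 6 were called, all 3 lower, where 46.4% of all genes were called and 24.2% were lower. WRKY11 had 40.8, 25.2 and 26.7 FPKM in LN and 22.3, 23.8 and 26.3 FPKM in HN at T3, and 57.4, 75.2 and 87.5 FPKM in LN and 68.1, 56.7 and 49.2 FPKM in HN at T1. Every plant at T1 exceeded every plant at T3 (-1.23 ± 0.17 log2, limma adjusted p = 8.8e-06). WRKY7 Spo22065 fell further, by 1.87 ± 0.21 on the log2 scale (limma adjusted p = 8.8e-07). Its copy WRKY7 Spo07680, named for contrast after its values were seen, had -0.23 ± 0.29 and was called in no comparison. The remaining called gene, WRKY21 Spo11385, had -0.66 (limma adjusted p = 0.016), while between T2 and T4 it was higher in the light, as given below.

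Group I, with a pair of WRKY domains in each protein in the species where it was defined, had 5 of 9 genes called lower at T3, where 24.2% of all genes were, and the other 4 had positive differences that were not called. WRKY32 Spo15947 (light-driven seedling development) was 1 of the 5 called: at T3 it had 4.29, 6.15 and 6.75 FPKM in LN and 3.82, 5.05 and 4.95 FPKM in HN, and at T1 9.80, 12.4 and 15.5 FPKM in LN and 7.66, 9.47 and 7.25 FPKM in HN. The difference was -0.86 ± 0.13 log2 (limma adjusted p = 2.3e-05), and T1 and T3 plants did not overlap. The WRKY domain group III was represented by WRKY53 and WRKY41, both lower at T3. The group IIa gene WRKY40 Spo19888, a repressor in immunity and abscisic acid signalling, differed by -1.78 ± 0.38 log2 (limma adjusted p = 7.6e-04). Its T3 levels were 4.05, 6.01 and 0.892 FPKM in LN and 4.41, 5.29 and 7.95 FPKM in HN, and its T1 levels 12.7, 52.2 and 29.4 FPKM in LN and 8.81, 14.0 and 9.14 FPKM in HN. The T1 values of HN plants were close to one another, while those of LN plants spanned a wide range.

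The 2 WRKY genes that were higher at T3 belong to group IIc. WRKY23 Spo17680, which acts in auxin-dependent patterning, had 5.62, 7.52 and 8.73 FPKM in LN and 4.81, 2.79 and 4.56 FPKM in HN at T3, and 4.78, 0.903 and 1.93 FPKM in LN and 2.77, 2.64 and 2.49 FPKM in HN at T1. The difference was 0.91 ± 0.26 log2 (limma adjusted p = 0.0080), and at each nitrogen level every T3 plant lay above every T1 plant. The other gene, WRKY13 Spo00492 (lignin formation in stems), is named because of its direction and was chosen after its values were seen. Its difference was 0.74 ± 0.23 log2 (limma adjusted p = 0.012). Between T2 and T4 it went the other way, lower in the light at -0.62 (limma adjusted p = 0.045), a call lost in 13 of 31 alternative settings.

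In the NAC family the largest fall on the log2(FPKM + 1) scale was that of NAC6 Spo11776, on chromosome 4 at 111493411 to 111495084. It had 1.86, 7.42 and 9.66 FPKM in LN and 7.82, 13.0 and 2.25 FPKM in HN at T3, against 133.8, 79.3 and 376 FPKM in LN and 26.4, 65.9 and 41.7 FPKM in HN at T1. No T3 plant reached any T1 plant (-3.59 ± 0.55 log2, limma adjusted p = 2.8e-05). NAC061 Spo19692, a close relative of NAC090, had 0.990, 0 and 0 FPKM in LN and 0.771, 0.490 and 0 FPKM in HN at T3, and 13.6, 6.58 and 21.8 FPKM in LN and 0.769, 7.34 and 1.78 FPKM in HN at T1. Outside T1 its highest level was 1.31 FPKM, in LN T4 replicate 1, and HN T1 replicate 1 was no higher than the highest T3 plant. NAC061 met the level rule only through T1, so its T3 minus T1 difference of -2.38 ± 0.34 log2 is a description.

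NAC083, the member with the highest mean level, was high at both dark times. In LN it had 64.2, 231 and 59.9 FPKM at T1, 24.6, 13.1 and 22.6 FPKM at T2, 35.7, 24.3 and 17.0 FPKM at T3, and 199, 90.8 and 47.3 FPKM at T4. In HN it had 206, 349.7 and 155 FPKM at T1, 24.3, 19.8 and 29.5 FPKM at T2, 18.8, 20.0 and 25.1 FPKM at T3, and 179.7, 83.0 and 195 FPKM at T4. Every dark plant lay above every light plant at both nitrogen levels. The difference was -2.63 ± 0.36 log2 for T3 minus T1 (limma adjusted p = 7.9e-06) and for T2 minus T4 -2.37 ± 0.36 (limma adjusted p = 7.6e-05). ANAC094 Spo22257 showed the same order on a smaller scale, with differences of -0.93 ± 0.15 (limma adjusted p = 4.6e-05) and -1.01 ± 0.15 (limma adjusted p = 5.8e-05). Its light levels were 3.97 to 6.58 FPKM in LN and 2.50 to 5.24 FPKM in HN, against dark levels of 7.28 to 11.04 FPKM in LN and 8.65 to 12.4 FPKM in HN, with no overlap.

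Of the NAC genes that act in vessels and secondary walls in Arabidopsis, 3 of 5 were called between T3 and T1, where 46.4% of all genes were. NAC075 Spo04145 had a difference of -0.64 ± 0.15 log2 (limma adjusted p = 0.0020), and its levels were 3.99, 2.54 and 3.85 FPKM in LN and 3.90, 3.06 and 3.04 FPKM in HN at T3, and 5.75, 9.74 and 6.59 FPKM in LN and 5.07, 6.20 and 3.12 FPKM in HN at T1. The other called genes were the vessel regulators NAC037 Spo18031, which was lower, at -0.49 ± 0.16 (limma adjusted p = 0.015), and NAC007 Spo11378, which was higher by 0.58 ± 0.21 (limma adjusted p = 0.028). Both were chosen after their values were seen. The NAC007 call ended without LN T1 replicate 2, LN T3 replicate 3, HN T1 replicate 1 or 2, or HN T3 replicate 3 (limma adjusted p between 0.059 and 0.092). The other NAC gene that was higher at T3 was NAC035 Spo20660, which delays flowering. Its levels were 16.1, 13.1 and 8.30 FPKM in LN and 16.9, 14.3 and 9.66 FPKM in HN at T3, and 9.28, 6.24 and 5.46 FPKM in LN and 2.50, 4.70 and 3.05 FPKM in HN at T1. The groups did not overlap in HN, while in LN T3 replicate 3 lay within the T1 plants (1.23 ± 0.21 log2, limma adjusted p = 7.5e-05).

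**Figure D3:**
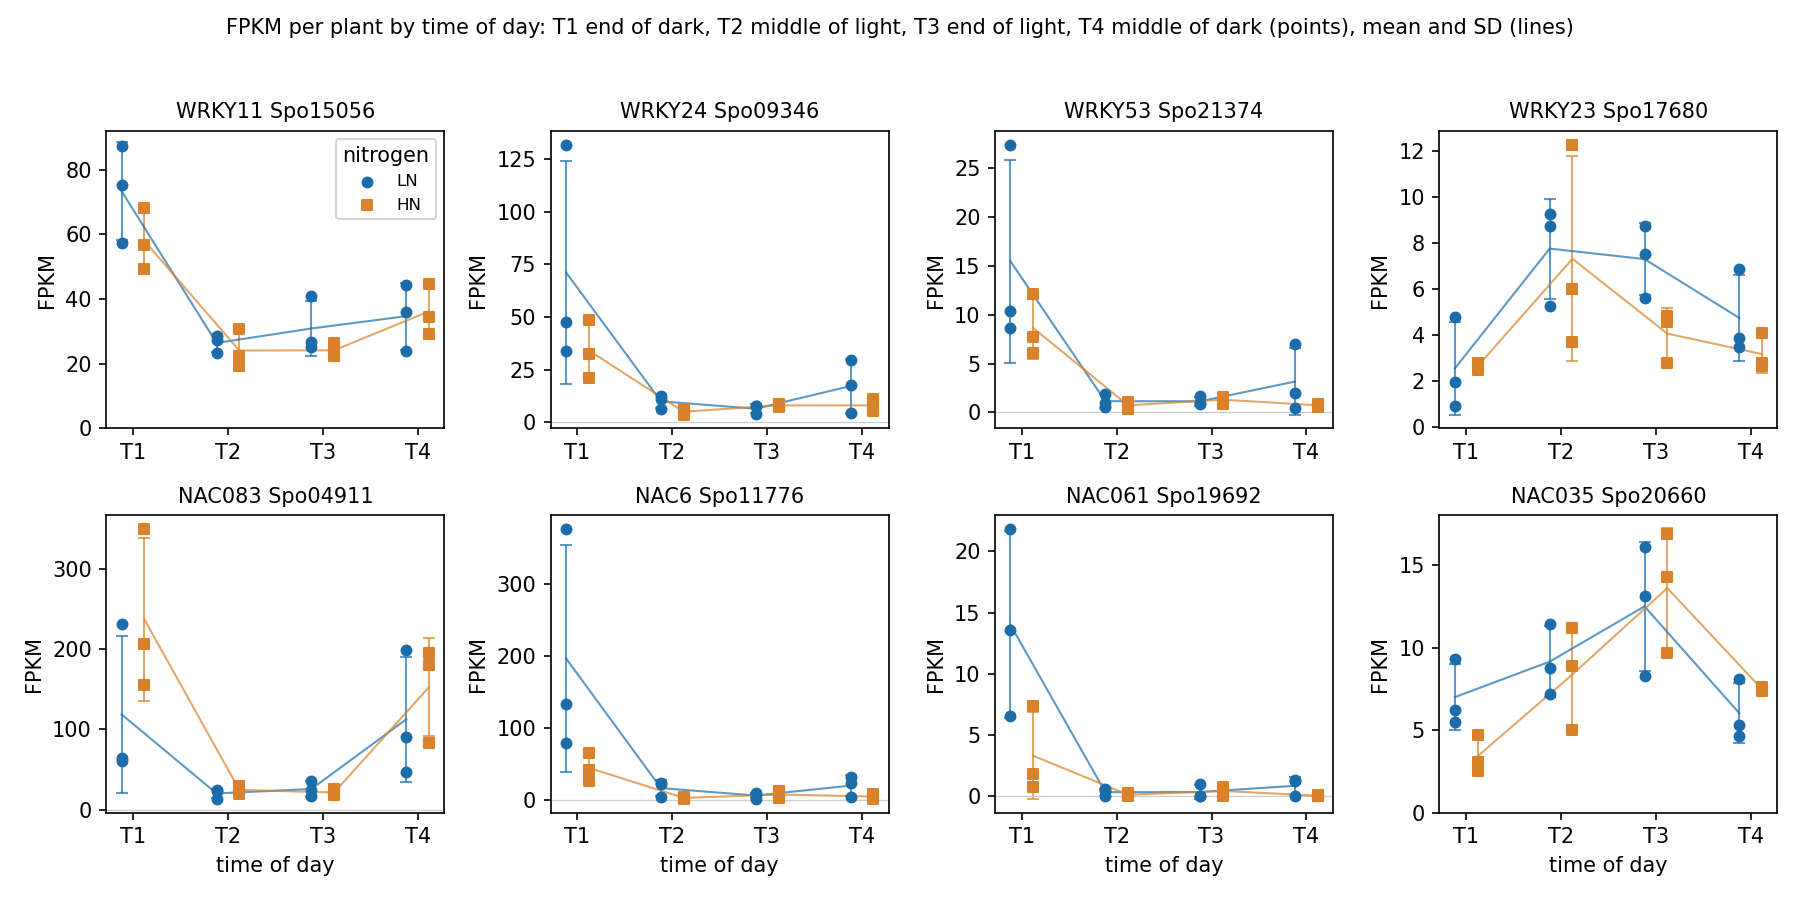
FPKM of 4 WRKY (top) and 4 NAC genes (bottom) at the 4 times in LN (circles) and HN (squares), 1 point per plant, with the group mean and SD as lines. WRKY11, WRKY24 Spo09346, WRKY53, NAC6 and NAC061 stand highest at T1, NAC083 at T1 and T4, and WRKY23 and NAC035 in the light.

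**Figure D4:**
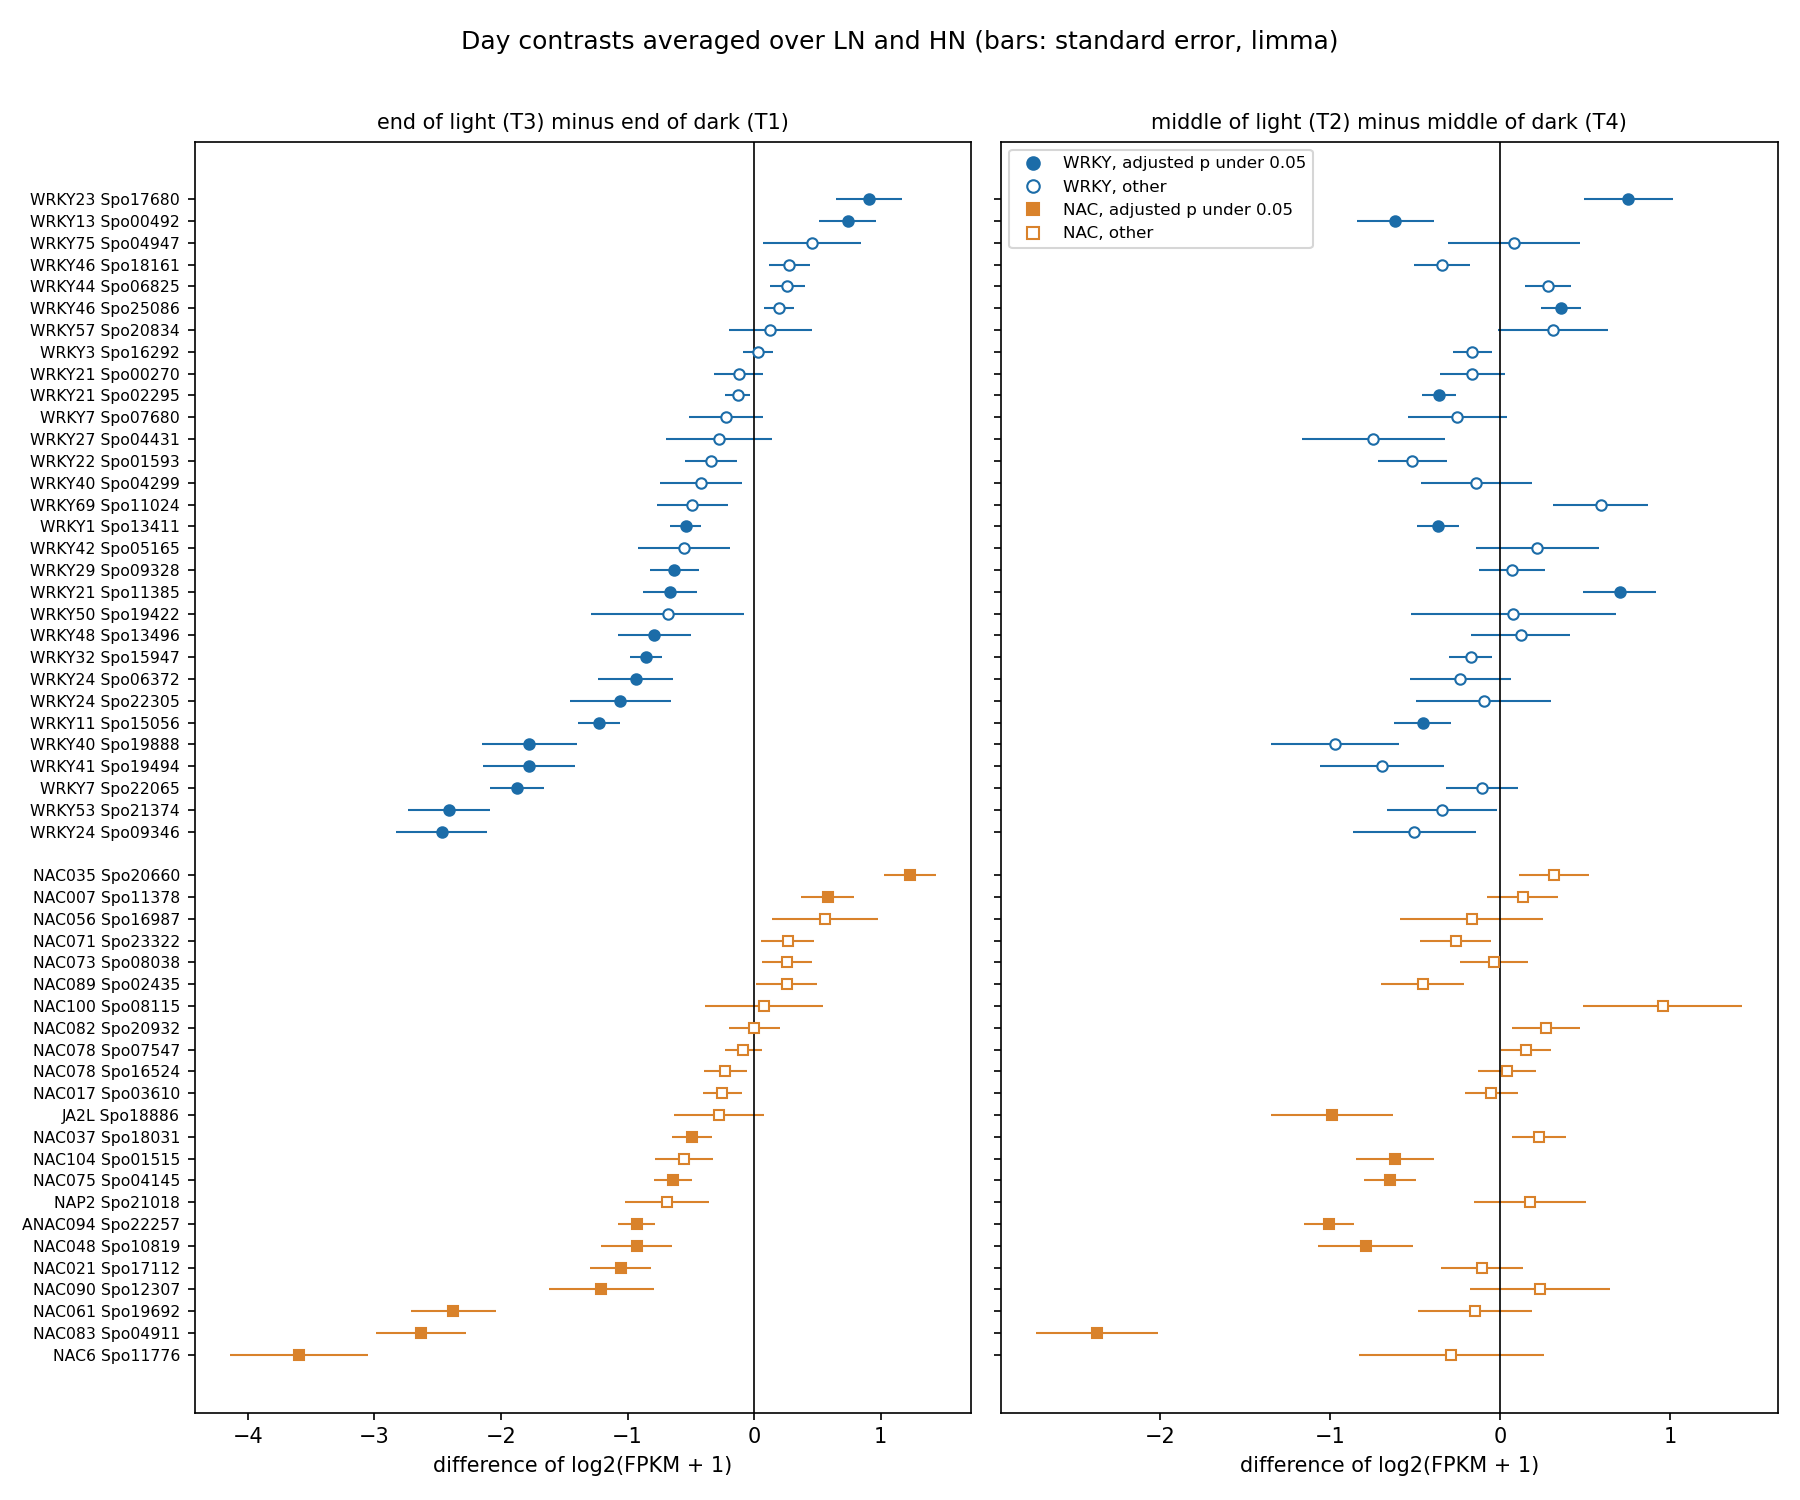
Difference of log2(FPKM + 1) for each member between the end of light and the end of dark (left) and between the middle of light and the middle of dark (right), averaged over both nitrogen levels, with the standard error. Filled points are called. On the left most called points lie below 0, led by NAC6 at -3.59, and on the right NAC083 stands apart at -2.37.

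The middle of light differed from the middle of dark for fewer members, 7 WRKY genes (3 higher, 4 lower) and 6 NAC genes (all 6 lower). Of all genes 29% were called, 15.1% higher and 14% lower, so neither family's share (23.3% of WRKY, 26.1% of NAC) exceeded the background, while the NAC calls lay on one side. The lower NAC genes included NAC083, ANAC094, NAC075 (-0.65 ± 0.15, limma adjusted p = 0.0033), JA2L (-0.99 ± 0.36, limma adjusted p = 0.044) and NAC048 Spo10819, named after a rice stress regulator (-0.79 ± 0.28, limma adjusted p = 0.038). The stomatal factor JA2L had 16.0, 23.0 and 31.5 FPKM in LN and 46.9, 19.9 and 21.7 FPKM in HN at T2, and 92.1, 44.0 and 47.2 FPKM in LN and 58.9, 31.4 and 46.5 FPKM in HN at T4. The times overlapped in HN and not in LN. The JA2L call was lost in 12 and the NAC048 call in 9 of 31 alternative settings. Leaving out LN T2 replicate 1, LN T4 replicate 1, HN T2 replicate 2 or HN T4 replicate 1 ended both. LN T2 replicate 2, HN T2 replicate 3, HN T4 replicate 3, HN T1 replicate 1 and HN T3 replicates 1 and 3 each ended the JA2L call, and LN T2 replicate 3, HN T2 replicate 1 and HN T4 replicate 2 the NAC048 call. The highest limma adjusted p was 0.12 for both.

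Among WRKY genes, WRKY1 Spo13411, which links light and nitrogen signals, was lower in the middle of light, at -0.37 ± 0.12 log2 (limma adjusted p = 0.029). WRKY21 Spo02295 was also lower, at -0.36 ± 0.10 (limma adjusted p = 0.011), and WRKY11 at -0.46 ± 0.17 (limma adjusted p = 0.046). The higher genes were WRKY21 Spo11385 (0.70 ± 0.21, limma adjusted p = 0.018), WRKY23 (0.75 ± 0.26, limma adjusted p = 0.036) and WRKY46 Spo25086 (0.35 ± 0.12, limma adjusted p = 0.028). The 2 called genes named WRKY21 moved in opposite directions, and no WRKY domain was listed for Spo02295. The WRKY count was 3 or 4 without LN T2 replicate 1, 2 or 3, LN T4 replicate 1, HN T2 replicate 1 or HN T4 replicate 1 or 3, and the NAC count was 3 without LN T2 replicate 1, LN T4 replicate 1 or HN T2 replicate 2. The WRKY1 call was lost in 6, the WRKY11 call in 17, the WRKY23 call in 11 and the WRKY46 Spo25086 call in 9 of 31 alternative settings, while both WRKY21 calls held in all 31. The WRKY1 call ended without LN T2 replicate 1, LN T4 replicate 3, HN T2 replicate 2 or HN T4 replicate 1. The WRKY23 and WRKY46 Spo25086 calls both ended without LN T2 replicate 2 or 3, LN T4 replicate 1 or 2, HN T2 replicate 1, or HN T4 replicate 2 or 3, and the WRKY23 call also without HN T2 replicate 2. The WRKY11 call ended without any of 13 single libraries (limma adjusted p between 0.053 and 0.14): all 3 of LN T2 and of HN T3, LN T4 replicates 1 and 3, HN T1 replicate 2, HN T2 replicates 1 and 3, and HN T4 replicates 1 and 3. The split depended on scaling: with every library set to a common sum of FPKM, the median of all genes moved to -0.28 log2, the share of calls that were higher was 17.9% instead of 51.9%, and 1 WRKY gene was higher and 10 were lower, with WRKY23 and WRKY46 Spo25086 no longer called. The NAC count stayed at 0 higher and 6 lower under that scaling.

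A small set of members was higher in LN than in HN, and with all 24 libraries no member of either family was called lower. Averaged over the 4 times, 5 of 30 WRKY and 4 of 23 NAC genes were called higher in LN, with 7.92% of all genes called higher, 8.62% lower and 16.5% in either direction. At the end of dark alone, 4 WRKY and 2 NAC genes were called higher, with 5.1% of all genes called higher, 4.86% lower and 9.97% in either direction. One of these WRKY genes is WRKY29, which met the level rule through LN T1 alone, and the other 3 are WRKY50, WRKY48 and WRKY7 Spo22065. The 2 NAC genes are NAC090 and NAC061, and NAC061 met the level rule only through T1. NAC061 is also among the 4 NAC genes of the averaged count. The median LN minus HN difference averaged over the times was 0.28 for WRKY and 0.25 for NAC genes, against 0.0035 for all genes. At the end of dark it was 0.47 for WRKY and 0.49 for NAC genes, against 0.0097 for all genes, and it was positive for 25 WRKY and 17 NAC genes and for 50.8% of all genes. With a common sum of FPKM, the share of all calls at the end of dark that were higher was 69.7% instead of 51.2%, and the members' counts were the same, 4 and 2.

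WRKY50 Spo19422, which acts in salicylic acid and jasmonate responses, had the largest averaged difference among WRKY genes (1.57 ± 0.43 log2, limma adjusted p = 0.018) and lies on chromosome 1 at 33951381 to 33952640. At T1 its level was 15.8, 0.899 and 19.7 FPKM in LN and 0.210, 0 and 0.614 FPKM in HN, and at T4 it was 0.269, 1.80 and 25.8 FPKM in LN and 0.0853, 0 and 0.118 FPKM in HN. Every LN plant lay above every HN plant at both times, but 3 LN plants carried most of the size. The difference at T1 was 2.80 ± 0.85 (limma adjusted p = 0.042), and it was not called in 15 of 31 alternative settings. The T1 call was lost without LN T1 replicate 1 (limma adjusted p = 0.14) or 3 (0.22) or HN T1 replicate 1 (0.11), 2 (0.11) or 3 (0.076). It was also lost without LN T2 replicate 3, HN T2 replicate 2, HN T3 replicate 2 or any of the HN T4 replicates (limma adjusted p between 0.05 and 0.053).

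WRKY48 Spo13496, a repressor of basal defence, had 5.03, 13.8 and 11.6 FPKM in LN and 1.79, 2.13 and 0.876 FPKM in HN at T1. These groups did not overlap (2.03 ± 0.41 log2, limma adjusted p = 0.0053), and the averaged difference was 0.73 ± 0.20 (limma adjusted p = 0.020). With voom the averaged calls of WRKY48 (adjusted p = 0.050) and WRKY50 Spo19422 (0.079) were lost. WRKY29 Spo09328, which acts downstream of a MAP kinase cascade in flagellin responses, had 1.63, 3.61 and 3.84 FPKM in LN and 0.0451, 0.905 and 0.406 FPKM in HN at T1. These are the libraries through which it met the level rule, so their distance (1.46 log2, 1 of the 4 calls at T1) is a description. At the other times its group means were between 0.264 and 0.539 FPKM in LN and between 0.276 and 0.567 FPKM in HN, and the averaged difference of 0.32 was not called (limma adjusted p = 0.11; 0.044 without LN T1 replicate 1).

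WRKY7 Spo22065 had 16.8, 31.7 and 42.7 FPKM in LN and 12.8, 18.3 and 10.3 FPKM in HN at T1. The ranges overlapped between LN replicate 1 and HN replicate 2 (1.02 ± 0.30 log2, limma adjusted p = 0.035, and 0.51 ± 0.15, limma adjusted p = 0.026, averaged over the times). The T1 call was lost without LN T1 replicate 2 (limma adjusted p = 0.067) or 3 (0.22) or HN T1 replicate 1 (0.1) or 3 (0.13), and the averaged call without LN T1 replicate 3 (0.054) or HN T2 replicate 3 (0.051). The other averaged differences were small: 0.35 ± 0.09 log2 for WRKY32 (limma adjusted p = 0.014) and 0.28 ± 0.09 for WRKY1 (limma adjusted p = 0.034). WRKY1 had 26.8, 23.5 and 29.1 FPKM in LN and 20.0, 23.4 and 18.1 FPKM in HN at T1, and its LN mean exceeded its HN mean at all 4 times. The WRKY1 call was lost in 14 of 30 alternative settings (limma adjusted p between 0.011 and 0.068 over all 30). Those settings included the removal of LN T1 replicate 3, LN T2 replicate 2 or 3, LN T3 replicate 1 or 2, LN T4 replicate 3, HN T1 replicate 1 or 3, HN T2 replicate 2, HN T3 replicate 1 or 3, or HN T4 replicate 2 or 3.

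Among NAC genes, NAC017, NAC082 and NAC090 act together to delay leaf senescence in Arabidopsis, and a member named after each was measured. NAC090 Spo12307 had the largest NAC difference at T1, with 6.61, 4.62 and 41.3 FPKM in LN, against 0.311, 1.17 and 0.326 FPKM in HN. The plants did not overlap, and LN replicate 3 was far above the others (2.97 ± 0.58 log2, limma adjusted p = 0.0046, and 1.17 ± 0.29, limma adjusted p = 0.012, averaged over the times). NAC082 Spo20932 had 75.2, 81.3 and 122.9 FPKM in LN and 51.8, 50.5 and 44.8 FPKM in HN at T1. All LN plants lay above all HN plants at that time, and the averaged difference was 0.51 ± 0.14 (limma adjusted p = 0.021), while the T1 difference of 0.88 ± 0.29 was not called (limma adjusted p = 0.056). Without LN T3 replicate 3 (limma adjusted p = 0.046), LN T4 replicate 2 (0.038) or LN T4 replicate 3 (0.011) it was called. NAC017 Spo03610, included for this role, was not called (0.25 ± 0.11 averaged over the times, limma adjusted p = 0.13), although all its LN plants lay above all HN plants at T1. The NAC090 calls were absent with voom on recovered fragments (limma adjusted p = 0.064 at T1 and 0.12 averaged).

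NAC6 Spo11776 was higher in LN by 1.32 ± 0.39 log2 on average (limma adjusted p = 0.026). In LN it had 133.8, 79.3 and 376 FPKM at T1 and 4.38, 23.4 and 22.0 FPKM at T2, against 26.4, 65.9 and 41.7 FPKM at T1 and 4.61, 2.62 and 1.84 FPKM at T2 in HN. The T1 groups did not overlap and the T2 groups overlapped in 1 LN plant. The averaged call was lost without LN T1 replicate 3 (limma adjusted p = 0.054) or LN T4 replicate 3 (0.052). NAC061 met the level rule only through T1, so its nitrogen differences are a description. At T1 it was higher in LN by 1.98 ± 0.47 (limma adjusted p = 0.014), with LN replicate 2 (6.58 FPKM) below HN replicate 2 (7.34 FPKM). This call was lost without LN T1 replicate 3 (limma adjusted p = 0.1) or HN T1 replicate 1 (0.082) or 3 (0.055). Its averaged difference of 0.71 ± 0.24 (limma adjusted p = 0.047) was not called in 22 of 30 alternative settings, with limma adjusted p between 0.011 and 0.34, and was lost without any single library other than LN T1 replicate 2, LN T2 replicate 2, LN T3 replicate 3, LN T4 replicate 2, HN T1 replicate 2 or HN T3 replicate 1.

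In all, 6 WRKY and 4 NAC genes were called for nitrogen in 1 or both of these comparisons, WRKY29 and NAC061 among them. NAC083 ran the other way at T1, with 64.2, 231 and 59.9 FPKM in LN and 206, 349.7 and 155 FPKM in HN. LN replicate 2 lay within the HN plants and the other LN plants below them, and the difference was not called (-1.20 ± 0.50 log2, limma adjusted p = 0.13), whereas without LN T1 replicate 2 it was -1.83 ± 0.48 and called (limma adjusted p = 0.017). Every LN plant lay above every HN plant at T1 for 7 WRKY genes, WRKY29 among them, and 7 NAC genes, where 14.1% of all genes did so, and below for 2 and 2, where 13.3% did so. At T2 every LN plant lay above for 2 WRKY genes and 1 NAC gene (7.48% of all genes) and below for 1 and 0 (8.29%). At T3 it lay above for 2 and 1 (5.48%) and below for 0 and 0 (6.36%). At T4 it lay above for 4 and 4 (12.2%) and below for 2 and 0 (12.8%).

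**Figure D5:**
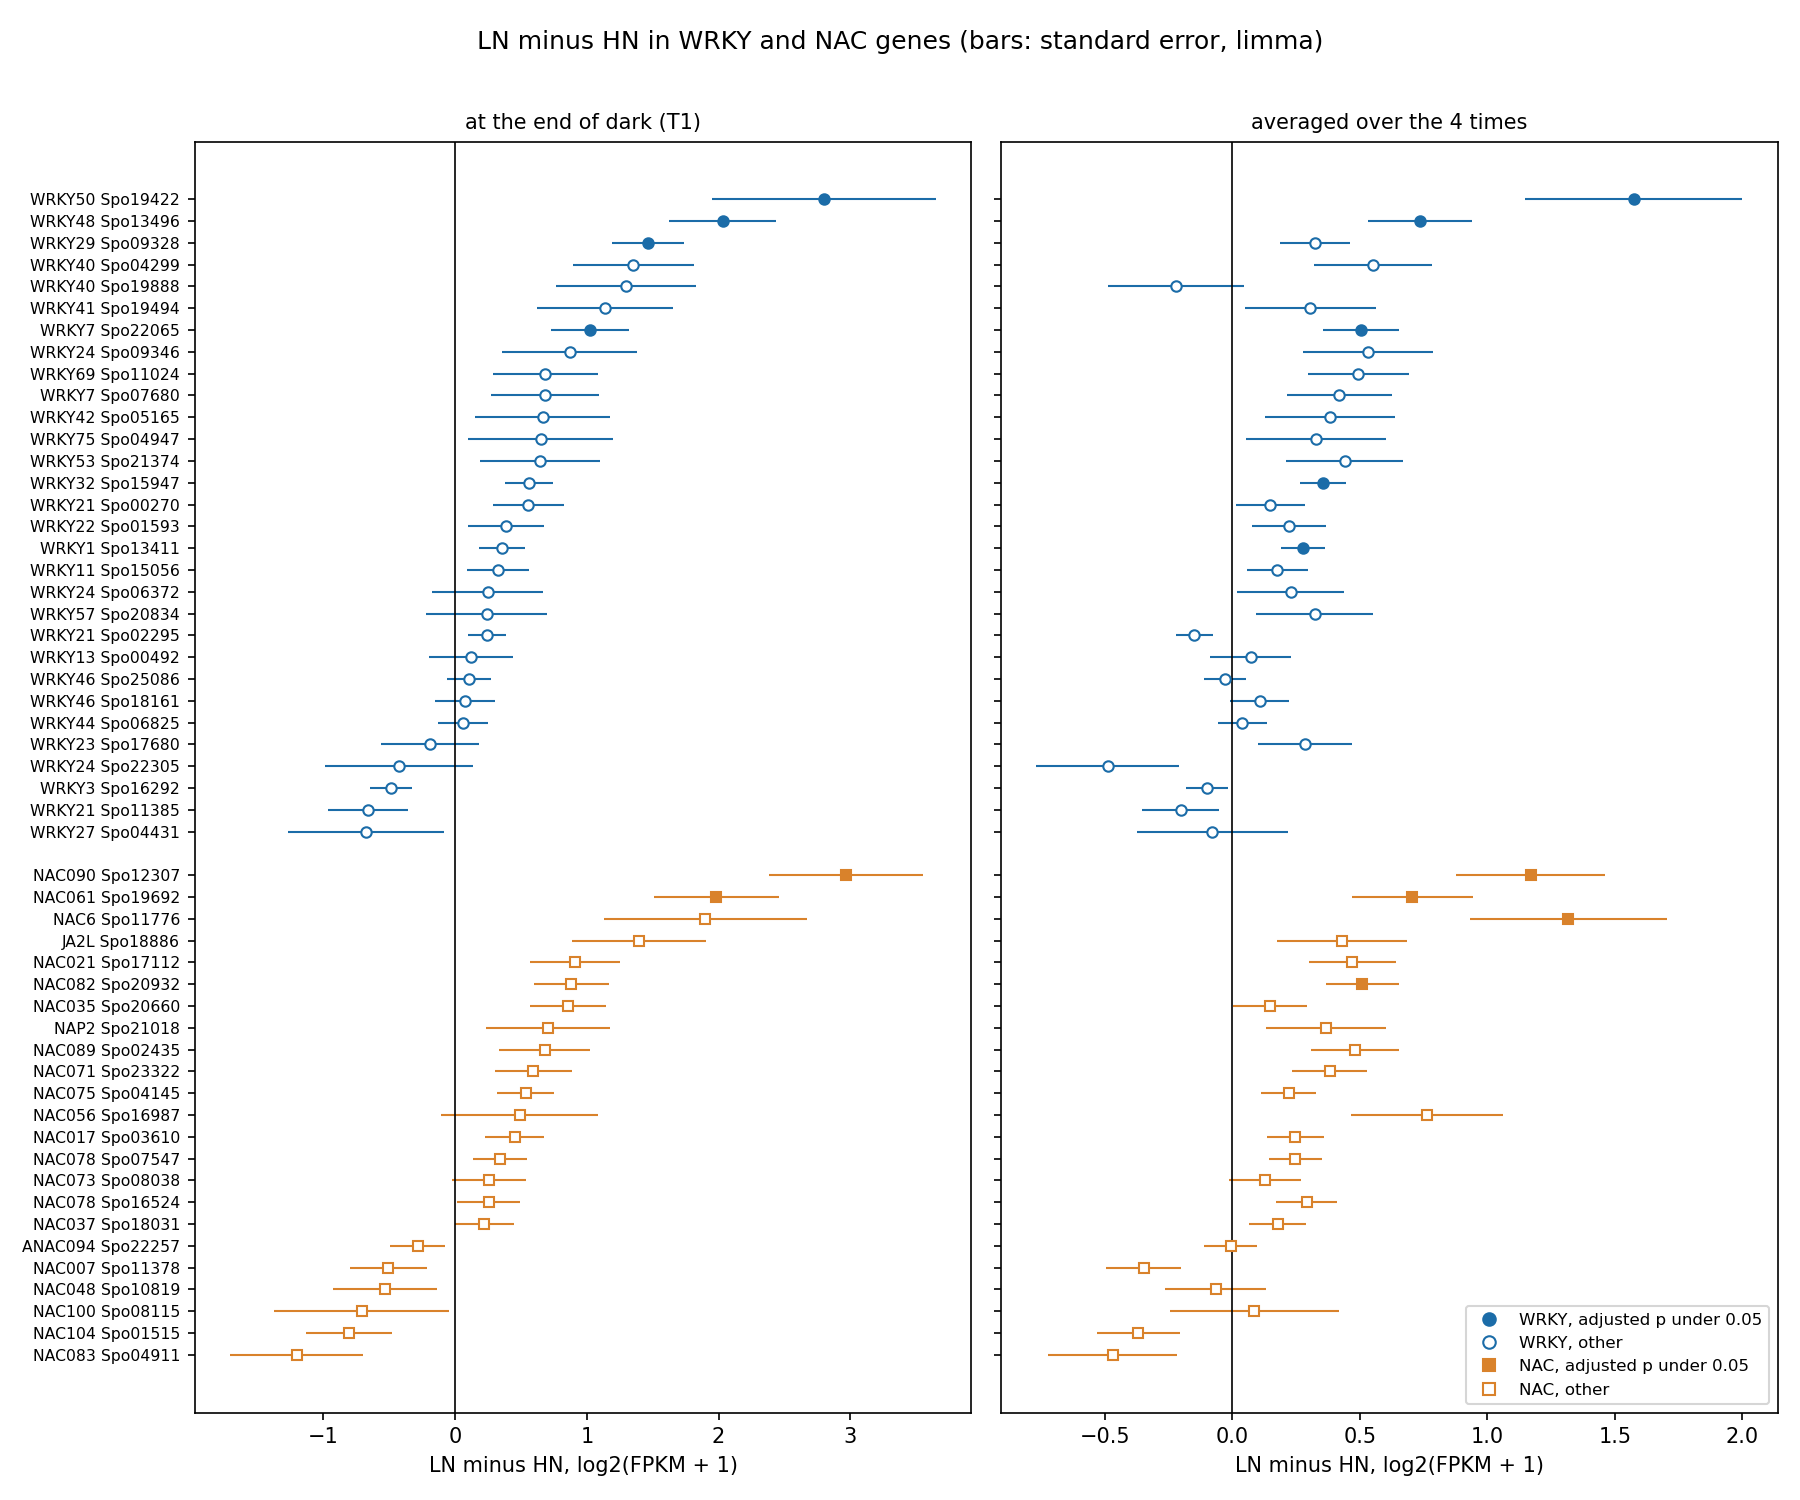
LN minus HN difference of log2(FPKM + 1) for each WRKY and NAC gene at the end of dark (left) and averaged over the 4 times (right), with the standard error; filled points are called. All filled points lie right of 0, led by WRKY50, WRKY48, NAC090 and NAC061 at the end of dark, and NAC083 is the lowest open point at -1.20. WRKY29 and NAC061 met the level rule through T1.

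The T1 libraries also differed in other ways, whose part in these results was not tested. The summed level of the 21 antenna and Rubisco small subunit genes at T1 was 53584, 29394 and 30653 FPKM in LN and 63885, 51416 and 72911 FPKM in HN. It was lowest of all in LN T4 replicate 3 (12921 FPKM), the plant with the highest WRKY50 level. At T1 the summed xylem markers were 15.1 to 33.6 FPKM in LN and 37.1 to 45.7 FPKM in HN. The summed markers of dividing cells and meristems were 83.3 to 112 FPKM in LN and 62.8 to 76.6 FPKM in HN, and those of guard cells 17.2 to 28.9 FPKM in LN and 14.95 to 15.8 FPKM in HN. In these 3 sums the groups did not overlap, while the flower and root markers overlapped. The xylem and dividing cell sums were mostly CESA4 and CYCB1-2, with means of 17.5 and 76.2 FPKM over all libraries. The mean of log2(FPKM + 1) over the tested genes did overlap at T1 for both lists, and not for guard cells. For xylem it was 2.14 to 2.72 in LN and 2.55 to 2.84 in HN. For dividing cells it was 5.03 to 5.21 in LN and 4.85 to 5.04 in HN. The summed level of all 39 genes listed for the touch and wound response, 30 of them tested, was 915, 1769 and 1241 FPKM in LN and 693 to 897 FPKM in HN at T1. At that time every LN plant exceeded every HN plant in this sum, as it did for the partner, MAP kinase and immunity lists below.

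The nitrogen counts rested on few plants. Without LN T1 replicate 3 the averaged counts were 3 WRKY and 2 NAC genes and the T1 counts 2 and 1, and without HN T1 replicate 1 or HN T1 replicate 3 the T1 counts were also 2 and 1. Without LN T4 replicate 3 the averaged NAC count was 2, and without LN T3 replicate 3 it was 8. With only the 6 T1 libraries in the fit, the T1 counts were 0 and 0.

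At T2, T3 and T4, limma called no WRKY and no NAC gene between LN and HN, where 0.00552%, 0.00552% and 0.37% of all genes were called. At an unadjusted p under 0.05 these times gave 1, 2 and 6 WRKY genes and 1, 1 and 7 NAC genes, and voom on the recovered fragments called 0 at each. Whether the nitrogen difference changed with time was tested by the interaction, which limma called for 0.0828% of all genes and for 0 members. At an unadjusted p under 0.05 it gave 4 WRKY and 2 NAC genes, and voom called 0. The calls at T1 alone therefore do not show a difference between T1 and the other times. For the interaction, 1 WRKY gene was called without LN T1 replicate 1 and 1 without the 3 farthest libraries, and 0 NAC genes in any setting run.

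Partners and neighbours of the 2 families in signalling were taken from lists of protein names. The share of all genes that were higher and lower stands in parentheses after each count. Of 7 tested proteins with a VQ motif, which bind WRKY domains, 3 were higher in LN averaged over the times and none was lower (all genes 7.92% and 8.62%), led by MKS1 Spo06543, a MAP kinase substrate (0.71 ± 0.17 log2, limma adjusted p = 0.011). Between T3 and T1, 3 were higher and 3 lower (all genes 22.2% and 24.2%), and IKU1 Spo23298, a regulator of seed size, was higher by 1.66 ± 0.14 (limma adjusted p = 2.4e-08).

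Of 23 MAP kinase cascade genes, 6 were higher in LN and 1 lower averaged over the times (all genes 7.92% and 8.62%), with a median of 0.23 log2, against 0.0035 for all genes. MKK4 Spo04536, an activator of immune MAP kinases, was higher by 0.65 ± 0.15 (limma adjusted p = 0.0075). Between T3 and T1, 6 were higher and 10 lower (all genes 22.2% and 24.2%), and MPK3 Spo03203, a central kinase of WRKY activation, was lower, at -3.14 ± 0.31 (limma adjusted p = 1.6e-07). Of 17 salicylic acid and immunity regulators, 6 were higher in LN and 2 lower averaged over the times (all genes 7.92% and 8.62%), with SARD4 Spo04374 (pipecolic acid synthesis) at 0.60 ± 0.13 (limma adjusted p = 0.0051). At T1, 5 were higher and 1 lower (all genes 5.1% and 4.86%), and CBP60C Spo20877, a relative of an immune regulator, was higher by 1.86 ± 0.43 (limma adjusted p = 0.012). Between T3 and T1, 3 of the 17 were higher and 9 lower (all genes 22.2% and 24.2%).

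Senescence genes gave no single direction. Of 11, 2 were higher and 3 lower in LN averaged over the times (all genes 7.92% and 8.62%). DIN1 Spo09152, induced by darkness in ageing leaves, was lower, at -0.98 ± 0.18 (limma adjusted p = 0.0021). The senescence protease SAG12 Spo13563 was lower, at -0.82 ± 0.20 (limma adjusted p = 0.010), while the chlorophyll breakdown enzyme PAO Spo20588 was higher by 0.69 ± 0.17 (limma adjusted p = 0.010). Of 10 secondary wall genes, none was called in the averaged nitrogen comparison, and only the cellulose synthase CESA4 Spo23502 was lower at T3 (-1.43 ± 0.20, limma adjusted p = 1.3e-05). Of the 30 tested touch and wound genes, 7 were higher and 2 lower in LN averaged over the times (all genes 7.92% and 8.62%). Between T3 and T1, 4 were higher and 11 lower (all genes 22.2% and 24.2%), with a median of -0.62 log2, against -0.01 for all genes. The total of 15 of 30 was near the 46.4% of all genes called, and the lower side was the larger one.

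Across the 24 libraries the members of both families tended to vary together, given here as a description over libraries that share times and nitrogen levels. The median Pearson correlation of log2(FPKM + 1) between pairs was 0.19 within WRKY, 0.18 within NAC and 0.22 between the families, against -0.0019 for all pairs of tested genes. After the group means were removed it was 0.18 within WRKY, 0.094 within NAC and 0.17 between the families. The most alike pair was NAC6 and WRKY24 Spo09346 (r = 0.94), followed by WRKY53 and NAC061 (r = 0.92). NAC061 met the level rule only through T1, which favoured a high correlation with other genes high at T1. For deviations from the group means it was JA2L and WRKY40 Spo19888 (r = 0.91). WRKY11 and WRKY7 Spo22065, both of group IId, had r = 0.90.

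Of the genes with a WRKY or NAC name, 5 pairs lay within 100000 bases of each other on Sp75, and 3 of them held a member: WRKY22 Spo01593 and WRKY24 Spo01596 on chromosome 2, WRKY29 Spo09328 and WRKY56 Spo09329 on chromosome 6, and the copies NAP2 Spo21018 and NAP2 Spo21019 on chromosome 1. In each of these pairs 1 gene was a member and the other averaged 0.0104, 0 and 0.0993 FPKM, in that order. The other 2 pairs, JA2 Spo17876 and JA2 Spo17843 on chromosome 2 and the overlapping WRKY42 Spo09488 and WRKY42 Spo09478 on chromosome 4, held no member. No call was made in any comparison for 11 WRKY and 9 NAC genes. They included the highly expressed WRKY46 Spo18161, which stayed between 16.6 and 34.6 FPKM in LN and between 14.3 and 29.8 FPKM in HN.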

How the data were processed

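Leaf messenger RNA of 24 spinach leaf samples (8 groups of 3, from independent plants within a group) was sequenced from poly-A selected, strand-specific libraries, per the labels' protocols. Values are FPKM per gene as deposited by the authors in a single table with Sp75 gene identifiers. HISAT2, RSEM and DESeq2 1.20.0 are listed per the submitters' processing notes, with their roles not given in the sources used here. FPKM carries the gene length used by the authors, and FPKM times length divided into whole fragments for 100.0% of values within 0.01, which gave library depths. All 24 value columns were mapped to samples by name, and 1 blank line was dropped. The labels do not say whether a plant was sampled at several times, and the fit treats all libraries as independent.

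The 18110 genes with at least 1 FPKM in at least 3 libraries were fitted with limma 3.58.1 (R 4.3.3) on log2(FPKM + 1), using 1 mean per group (8 in all), which left 16 residual degrees of freedom, and a mean-variance trend, and p-values were adjusted by Benjamini-Hochberg over all 18110. The replicate number was not a term, since the labels do not say that it follows a plant or a batch. The script was tested on simulated data. Python 3.11.15, pandas 2.3.3, numpy 2.4.6 and matplotlib 3.10.9 made the summaries. Alternatives were a pseudocount of 0.1, no filter on low values, a common sum of FPKM, voom on the recovered fragments, the replicate number as a block, fits on the compared groups alone, and leaving out each library or the 3 farthest.

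Members and lists were chosen with earlier results of these data known. Named in the text are the 4 highest members of each family, every member called for nitrogen, the 5 smallest adjusted p of each family in each time comparison, the 2 nearest to the level threshold on each side, and up to 3 genes per list. Others are said to have been chosen after their values were seen or for their role. Subgroups follow the classification of the namesake protein. From the lists, calcyclin-binding protein and a 9-lipoxygenase were removed as name matches to other proteins. Sequences were not used here.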

Additional observations from a re-analysis of the deposited data

How the results depend on the processing

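Counts are WRKY and NAC genes called, in that order, and those in parentheses are from all 24 libraries as reported. For nitrogen averaged over the times (5 and 4), voom called 3 and 2, the fit without the 3 farthest libraries 7 NAC genes, and leaving out 1 library gave 3 to 7 and 2 to 8. For nitrogen at the end of dark (4 and 2), a pseudocount of 0.1 gave 1 NAC gene, voom 1 NAC gene, the 6 compared libraries alone 0 and 0, the fit without the 3 farthest libraries 7 NAC genes, and leaving out 1 library gave 2 to 6 and 1 to 3. Nitrogen at the other 3 times stayed at 0 in every setting that leaves out 1 library. The interaction (0 and 0) gave 1 WRKY gene without the 3 farthest libraries and 0 to 1 and 0 to 0 when 1 library was left out. Time in LN (12 and 8) gave 9 to 15 and 6 to 10, time in HN (9 and 7) gave 5 to 10 and 6 to 9, and T3 minus T1 (15 and 11) gave 13 to 15 and 9 to 12. T2 minus T4 (7 and 6) gave 4 and 3 without the filter on low values, 11 WRKY genes with a common sum of FPKM, and 3 to 9 and 3 to 7 when 1 library was left out. The cause of these moves was not tested, except that fits on 6 libraries and fits that drop a library have fewer samples.

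Of 59 single-gene differences, 25 kept their side of the threshold in every setting run, and of 1818 alternative values 208 lost a call, 7 gained one and 1 changed sign. The change of sign was that of the uncalled WRKY7 Spo07680 between the end of light and the end of dark, which was 0.11 without the 3 farthest libraries.

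With the replicate number as a block the 20 counts summed to 84 calls, against 90 without it, with 82 shared, and nitrogen averaged over the times gave 5 and 3. The numbers did not pair the plants: deviations of same-numbered plants had a mean correlation of -0.018 over 84 pairs (-0.45 to 0.46), and 5 of 24 libraries correlated best with their own number.

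Members under about 1 FPKM rest on few fragments, and with 3 plants a group small differences can be missed.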

Other observations

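WRKY24 Spo22305, the third gene of that name, was between 7.60 and 20.3 FPKM in 23 of the 24 libraries. It was listed at 0 in the remaining one, LN T3 replicate 3, where the other plants of the group had 10.2 and 10.5 FPKM. Its difference between the end of light and the end of dark was -1.06 ± 0.40 log2 (limma adjusted p = 0.035) with that library and -0.47 ± 0.15 (limma adjusted p = 0.016) without it.

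Names outside the selection rule also belong to the families. A WRKY domain was listed for 3 further genes and a NAC-type domain for 15. WRKY70 Spo22621, which balances salicylic acid and jasmonate responses in Arabidopsis, averaged 21.0 FPKM and was higher in LN by 1.46 ± 0.39 log2 averaged over the times (limma adjusted p = 0.017). NTL9 Spo22390, a membrane-tethered NAC protein active in immunity, was lower at the end of light than at the end of dark by -0.97 ± 0.22 (limma adjusted p = 0.0014). A separate list, made from protein names outside the rule and not from domains, held 12 genes, of which 4 were tested. Averaged over the times, 1 of these 4 was higher in LN and none was lower (all genes 7.92% and 8.62%).

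The membrane-tethered members NAC017 Spo03610 and NAC089 Spo02435, which are released from membranes under stress in Arabidopsis, were called in no comparison.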
